A study of Mus musculus with 2 samples.

Results

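The glycolysis and energy metabolism genes described here are 37 genes for the transport of glucose and lactate, for glycolysis, for pyruvate entry into the TCA cycle, for that cycle and for the creatine kinase reaction, together with Txnip. They were chosen by name, and all 37 were found among the 23356 gene symbols of the deposited transcript table. RNA was sequenced from mouse retina at postnatal day 15, as 1 triple mutant library and 1 control library. The triple mutant was Rx-Cre positive and flox/flox at Dnmt1, Dnmt3a and Dnmt3b, with its strain labelled C57BL/7. The control carried the same 3 floxed genes without Cre (Rx-Cre negative), with its strain labelled C57BL/6. Rx-Cre expresses Cre recombinase from regulatory sequence of Rx, a homeobox gene of the retinal lineage. The labels do not say which exons were flanked, nor how many animals gave each library. With 1 library per group there is no replicate, so the values below compare a pair of libraries and no test was made.

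Glycolysis splits glucose into pyruvate, and lactate dehydrogenase turns pyruvate into lactate. Pyruvate that is not turned into lactate enters the mitochondrion, where the pyruvate dehydrogenase complex feeds it to the TCA cycle. The retina is known for releasing much of its glucose carbon as lactate even when oxygen is present, and photoreceptors account for much of that use. Lactate leaves and enters cells through monocarboxylate transporters, which need the chaperone basigin to reach the membrane. Creatine kinases pass phosphate between ATP and creatine, and so buffer ATP where it is used fast.

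The 4 members that differed most between the libraries were Slc16a8, Hk2, Slc16a1 and Txnip, and their promoters are shown because DNA methyltransferases act on cytosines in CpG. Each line gives the 250 bases before the start of the gene from RefSeq on GRCm38.p6, 5′ to 3′ along the gene, with every CpG in capitals.
Slc16a8 promoter (chr15:79254749-79254998, minus strand): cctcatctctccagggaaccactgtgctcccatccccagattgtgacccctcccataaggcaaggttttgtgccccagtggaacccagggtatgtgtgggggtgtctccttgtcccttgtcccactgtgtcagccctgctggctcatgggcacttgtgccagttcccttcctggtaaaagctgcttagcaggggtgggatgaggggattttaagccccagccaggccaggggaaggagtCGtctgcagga
Slc16a1 promoter (chr3:104638414-104638663, plus strand): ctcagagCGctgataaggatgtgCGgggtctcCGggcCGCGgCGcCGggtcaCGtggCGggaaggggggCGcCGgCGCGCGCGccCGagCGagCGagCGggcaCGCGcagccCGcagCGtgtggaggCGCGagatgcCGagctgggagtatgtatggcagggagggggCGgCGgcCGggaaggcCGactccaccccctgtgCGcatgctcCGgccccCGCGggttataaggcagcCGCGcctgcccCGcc
Hk2 promoter (chr6:82774455-82774704, minus strand): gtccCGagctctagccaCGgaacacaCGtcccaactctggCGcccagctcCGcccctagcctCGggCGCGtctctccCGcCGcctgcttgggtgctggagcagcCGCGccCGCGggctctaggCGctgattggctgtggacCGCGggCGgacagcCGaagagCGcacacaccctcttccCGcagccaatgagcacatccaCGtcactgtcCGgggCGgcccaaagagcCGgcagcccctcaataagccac
Txnip promoter (chr3:96557707-96557956, plus strand): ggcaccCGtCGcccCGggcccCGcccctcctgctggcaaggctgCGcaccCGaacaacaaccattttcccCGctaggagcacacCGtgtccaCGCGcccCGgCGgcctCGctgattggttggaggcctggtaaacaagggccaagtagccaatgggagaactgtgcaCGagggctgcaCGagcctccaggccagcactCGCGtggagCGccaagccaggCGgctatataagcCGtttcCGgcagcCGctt
Gene positions given further on are from GENCODE M21, whose starts differ slightly from those of RefSeq, so the last bases of the Slc16a8 promoter lie inside that gene as GENCODE places it. The Slc16a8 promoter held 1 CpG, fewer than or equal to 92.1% of all promoters. The Txnip promoter held 22, the Hk2 promoter 25 and the Slc16a1 promoter 37, which only 2.20% of all promoters reached. The median over 32851 promoters of this length was 6 (quartiles 2 and 16), and over 54 promoters of 33 members it was 13.5. These counts describe the sequence alone, since methylation was not measured in these files. The E-box CACGTG, searched on both strands, was in the Slc16a1 promoter and in 6.02% of all promoters. The shorter core ACGTG, which every CACGTG also contains, was in the Slc16a1 and Hk2 promoters and in 16.6% of all promoters, and in 22 of the 54 promoters of members (40.7%). It holds a CpG, as does GCGTG, which was in 28.2% of all promoters and in 51.9% of the promoters of members. The part of the higher CpG counts of members in these shares was not tested.

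Levels are given in FPKM, fragments per kilobase of transcript scaled to sequencing depth, as the authors estimated them, and were summed over the transcripts of a gene. By the steps between the lowest values, 1 FPKM over 2 kb of transcript rested on about 114 fragments in the mutant library and 97.6 in the control library. Differences are given as the log2 ratio of mutant to control after adding 1 FPKM to each. On this scale the ratios of genes with low levels come out smaller than they are. A gene was taken as measured if either library reached 1 FPKM, which holds for all 37 members and for 13280 genes. The size used for counting was 1.5-fold on that scale. Brackets hold exact 95% intervals for counting error alone. None of the 3 floxed genes was absent from the mutant library. Dnmt1 (11.6 FPKM in the mutant and 21.7 in the control) and Dnmt3a (56.0 in the mutant and 87.4 in the control) were lower there. Dnmt3b differed little, with 0.827 FPKM in the mutant and 1.03 in the control, a log2 ratio of -0.15. Its levels lay near 1 FPKM, the limit for being measured. Transcripts of rods, the main cell of the mouse retina, were abundant in both libraries, with Gnat1 at 3211 FPKM in the mutant and 4266 in the control.

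Most members differed little between the libraries. Of the 37, 3 were lower by at least 1.5-fold (Slc16a8, Hk2 and Slc16a1) and 1 was higher (Txnip). Of all measured genes, 3.04% were lower by that size and 4.29% were higher, so 4 of 37 members past it in either direction compares with 7.33% of all genes. By at least 2-fold, 1 member was lower, Slc16a8, against 0.648% of all genes, and 0 were higher, against 1.84%. In either direction 2.49% of all genes were past 2-fold. Txnip, at a log2 ratio of 0.99, stood just short of that size. The members nearest to 1.5-fold without reaching it were Gapdh, at 0.53, and Eno2, at -0.50. Of the members, 24 had log2 ratios below 0, where 50% of all genes did, and their median was -0.11, against -0.00 over all genes. The summed level of the members was nearly equal, 6926 FPKM in the mutant and 7088 in the control, which is 1.91% of the mutant total and 1.97% of the control total.

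**Figure D1:**
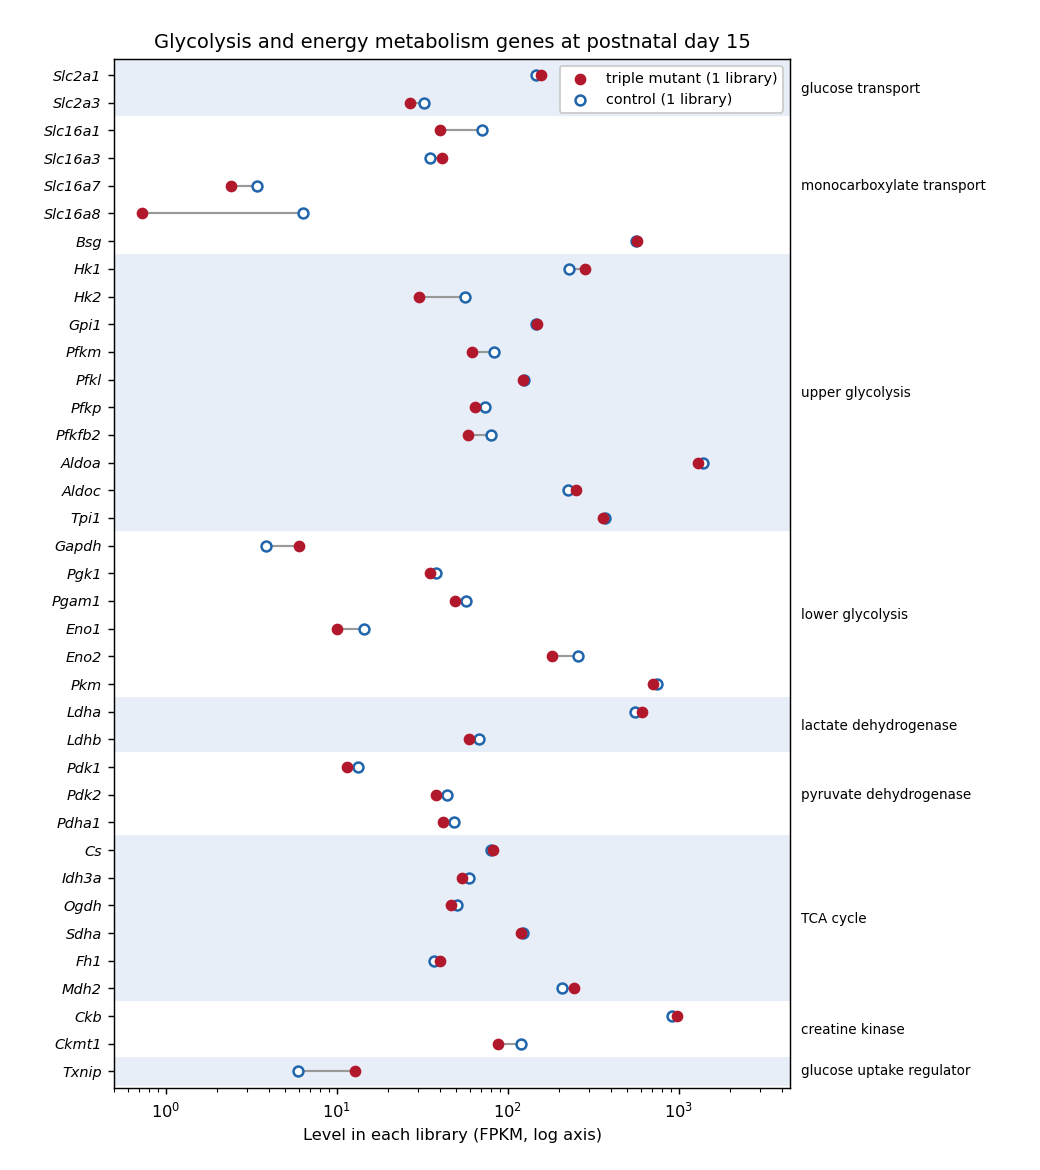
Level of each of the 37 members in the triple mutant library (filled) and in the control library (open), in FPKM on a log axis, grouped by role. Most pairs of points nearly coincide, and the widest gap is that of Slc16a8, at 0.726 FPKM in the mutant and 6.37 in the control.

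**Figure D2:**
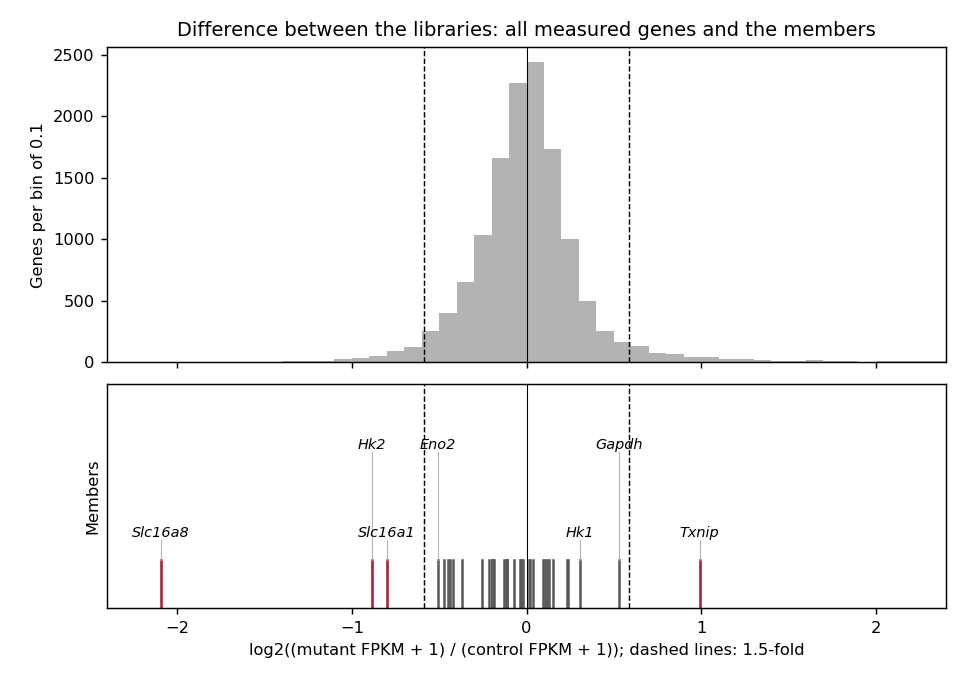
Histogram of the log2 ratio of mutant to control over measured genes (upper panel, ratios beyond 2.4 either way not shown) and the 37 members as lines (lower panel), with 1.5-fold marked by dashed lines. Slc16a8, Hk2 and Slc16a1 lie left of the dashed lines and Txnip lies right of them.

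The glucose transporters were at similar levels in both libraries. Slc2a1 encodes GLUT1, the main glucose carrier of the blood-retina barrier, of photoreceptors and of Mueller glia. It had 157 FPKM in the mutant and 146 in the control. Slc2a3, which encodes the neuronal carrier GLUT3, had 26.9 FPKM in the mutant and 32.2 in the control. Slc2a1 thus made up 85.4% of the summed level of the pair in the mutant (85.1 to 85.8) and 81.9% in the control (81.5 to 82.4).

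The monocarboxylate transporters held the largest differences among the roles. Slc16a8 (chr15:79251014-79254761, minus strand, GRCm38) encodes MCT3, which carries lactate across the basolateral membrane of the retinal pigment epithelium. It had 0.726 FPKM in the mutant and 6.37 in the control, so the mutant stood at 11.4% of the control (8.65 to 14.7). Only 0.173% of measured genes had a lower log2 ratio. Pigment epithelium is not part of the neural retina but lies against it, and its markers differed in the same direction. Of 9 listed markers 8 were measured, and 7 of these were lower in the mutant by at least 2-fold, among them the retinoid isomerase gene Rpe65 (0.126 FPKM in the mutant and 5.16 in the control) and the melanin synthesis gene Dct (1.48 FPKM in the mutant and 19.6 in the control). The exception was Rlbp1, which Mueller glia also express. The summed level of the 7 measured markers other than Rlbp1 was 6.01 FPKM in the mutant and 129 in the control, which puts the mutant at 4.66% of the control. Most of that control sum came from a single gene, Ttr, with 2.49 FPKM in the mutant and 79.1 in the control. In the mutant, 1 of the 9 markers was under 0.1 FPKM, Tyr at 0.0392. The part of pigment epithelium in the Slc16a8 difference was not tested. In RNA from a whole tissue, fewer cells of a type and less RNA per cell cannot be told apart.

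Slc16a1 (chr3:104638668-104658462, plus strand) encodes MCT1, the most widely used lactate and pyruvate carrier. It had 39.96 FPKM in the mutant and 70.2 in the control, 56.9% of the control (55.5 to 58.4), and 1.27% of measured genes had a lower ratio. Slc16a3, which encodes MCT4, the carrier of cells that export lactate, differed the other way by a small amount, with 41.2 FPKM in the mutant and 34.9 in the control. Slc16a7, the MCT2 gene, was low in both libraries, with 2.41 FPKM in the mutant and 3.40 in the control. By levels summed over transcripts, Slc16a1 and Slc16a3 were close in the mutant and Slc16a1 led in the control. In the mutant, Slc16a3 held 48.9% of the summed level of the 4 transporters (48.1 to 49.6) and Slc16a1 held 47.4% (46.6 to 48.1). In the control, Slc16a1 held 61.1% (60.4 to 61.8) and Slc16a3 held 30.4% (29.7 to 31.0). With only the highest transcript of each gene, Slc16a1 led in both libraries, since NM_001038653 of Slc16a3 had 22.4 FPKM in the mutant and 19.5 in the control. The summed level of the 4 was 84.3 FPKM in the mutant and 115 in the control.

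Bsg, which encodes basigin, was among the most abundant members and nearly equal, at 567 FPKM in the mutant and 561 in the control. Its transcripts differed more than their sum did. NM_009768 has an additional exon of 348 bases (chr10:79708697-79709044) and 389 codons, against 273 codons in NM_001077184. The long form is the retina-specific basigin of photoreceptors, and the short form is the common one. The long form had 221 FPKM in the mutant and 252 in the control, and the short form had 346 FPKM in the mutant and 309 in the control. The long form thus held 39.0% of the gene's level in the mutant and 44.9% in the control. Transcript levels rest on how the authors' software assigned fragments from shared exons, and no interval is given for them. Emb, which encodes embigin, a chaperone of the same family for MCT2, had 10.5 FPKM in the mutant and 15.3 in the control.

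Among the members for the first steps of glycolysis, the hexokinase gene Hk2 differed most. Hk2 (chr6:82725025-82774454, minus strand) encodes the hexokinase that mouse photoreceptors are known for. It had 30.1 FPKM in the mutant and 56.4 in the control, 53.4% of the control (52.0 to 54.8), and 0.919% of measured genes had a lower ratio. Hk1, the hexokinase gene used in most neurons, was the more abundant in both libraries, with 284 FPKM in the mutant and 229 in the control. The Hk2 share of the pair was therefore 9.60% in the mutant (9.41 to 9.79) and 19.8% in the control (19.5 to 20.1). The summed level of the pair was 314 FPKM in the mutant and 286 in the control, so their sum did not share the direction of Hk2. Hkdc1, a further hexokinase gene outside the members, had 17.9 FPKM in the mutant and 6.09 in the control, a log2 ratio of 1.42.

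The genes of phosphofructokinase, which commits sugar to glycolysis, were lower or equal. Pfkm had 61.5 FPKM in the mutant and 82.8 in the control, Pfkp had 64.5 in the mutant and 73.6 in the control, and Pfkl had 123 in the mutant and 125 in the control. Pfkl held 49.4% of their summed level in the mutant (48.9 to 49.8) and 44.4% in the control (43.9 to 44.8). Pfkfb2 encodes a bifunctional enzyme that makes and breaks the activator of phosphofructokinase, and it had 58.3 FPKM in the mutant and 79.9 in the control, a log2 ratio of -0.45. The other upper steps were nearly the same in both libraries. Gpi1, the isomerase that follows hexokinase, had 147 FPKM in the mutant and 145 in the control. The aldolase gene Aldoa was the most abundant member, at 1290 FPKM in the mutant and 1396 in the control, and ranked 8 among all measured genes in both. Aldoc, the brain aldolase, which is strong in glia, had 252 FPKM in the mutant and 227 in the control. Tpi1, which interconverts the triose products of aldolase, had 360 FPKM in the mutant and 370 in the control.

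The lower steps of glycolysis include a pair of genes whose values are uncertain. Gapdh had 6.03 FPKM in the mutant and 3.87 in the control, ranks of 9247 in the mutant and 10473 in the control among measured genes, far below its neighbours in the pathway. Many processed copies of Gapdh lie elsewhere in the mouse genome, and the sources used here do not say how the alignment treated fragments with several matches. Eno1 had 10.1 FPKM in the mutant and 14.4 in the control, but another row of the table at the same locus (chr4:150236721-150248879, plus strand) carries the symbol Gm5506, which RefSeq lists as a synonym of the near-identical copy Eno1b. That row had 358 FPKM in the mutant and 292 in the control and carried the authors' status LOWDATA. Summed over both rows the locus had 368 FPKM in the mutant and 307 in the control, a log2 ratio of 0.26 where the row named Eno1 gave -0.48. The second deposited table, from the same libraries, listed that transcript at 0.134 FPKM in the mutant and 0.0375 in the control, so the level in the Gm5506 row is unsettled. The direction of Eno1 is uncertain for that reason.

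The remaining lower steps differed by less than 1.5-fold. Eno2, the neuron-specific enolase gene, had 180 FPKM in the mutant and 257 in the control, 70.4% of the control (69.2 to 71.5). Pgk1 (34.9 FPKM in the mutant and 38.0 in the control) and Pgam1 (48.8 FPKM in the mutant and 56.7 in the control), for phosphoglycerate kinase and mutase, were slightly lower. Both genes also lay far below Tpi1 and Pkm in each library, for a reason that was not tested. Pkm, which encodes the muscle-type pyruvate kinase, had 712 FPKM in the mutant and 747 in the control.

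Pkm (chr9:59656368-59679375, plus strand) is spliced to hold one or the other of a pair of exons, of which the upstream one gives the M1 enzyme and the downstream one the M2 enzyme. In the retina M2 is known from photoreceptors and M1 from inner neurons. The deposited transcript NM_001253883 holds the upstream exon and NM_011099 the downstream one, per GENCODE M21. Both exons have 167 bases, shown here because the split of the gene's level rests on them, with the 64 positions that differ in capitals.
Pkm M1 exon (chr9:59675029-59675195, plus strand): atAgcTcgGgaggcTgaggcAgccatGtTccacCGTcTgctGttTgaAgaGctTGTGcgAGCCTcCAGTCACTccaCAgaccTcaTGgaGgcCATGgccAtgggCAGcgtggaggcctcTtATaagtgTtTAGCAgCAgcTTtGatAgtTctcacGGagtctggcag
Pkm M2 exon (chr9:59675568-59675734, plus strand): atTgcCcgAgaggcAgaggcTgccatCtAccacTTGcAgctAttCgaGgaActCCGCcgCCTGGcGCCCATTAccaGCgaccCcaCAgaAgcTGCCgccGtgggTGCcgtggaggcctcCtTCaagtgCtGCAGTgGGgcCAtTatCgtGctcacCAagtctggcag
The M2 transcript had 480 FPKM in the mutant and 425 in the control, and the M1 transcript had 232 FPKM in the mutant and 322 in the control. The M2 share was thus 67.4% in the mutant and 56.9% in the control, a difference of 10.5 points that the gene's sum does not show.

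**Figure D3:**
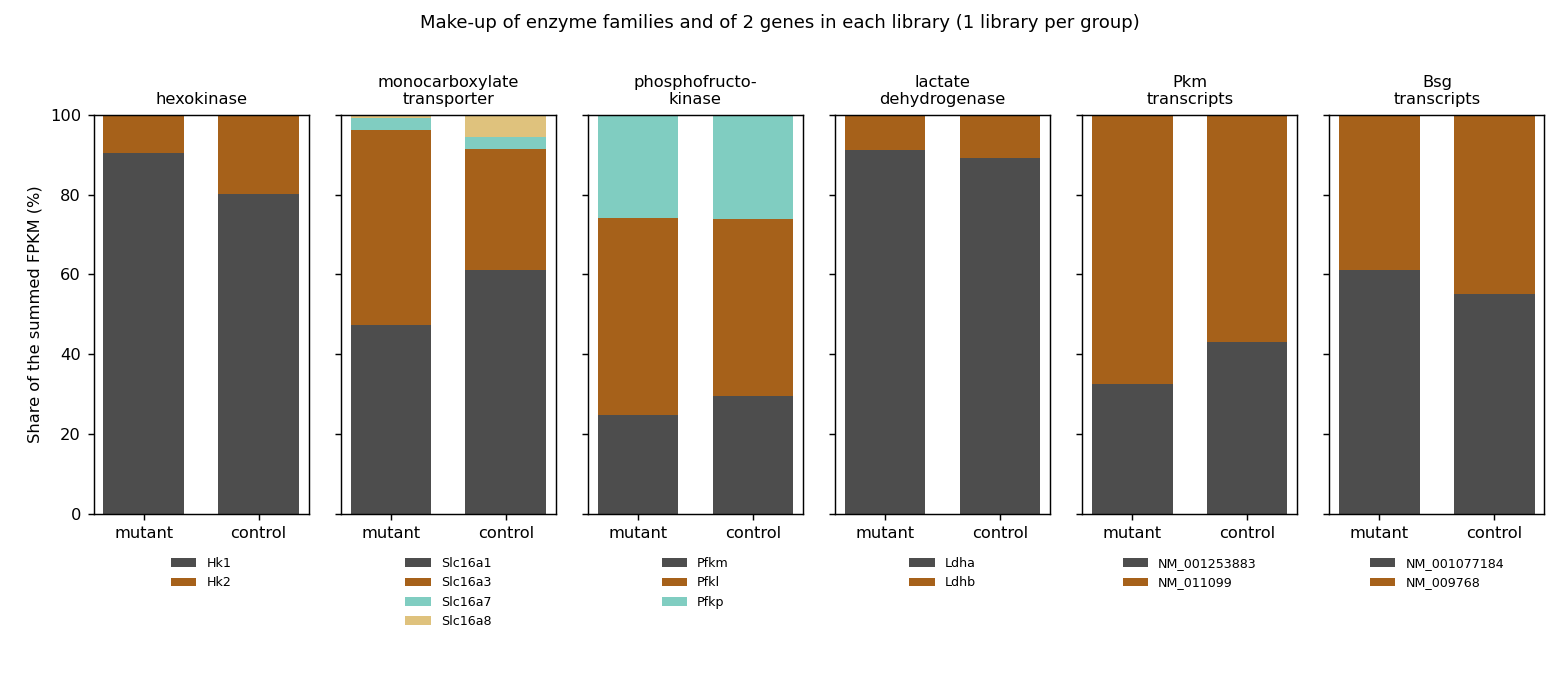
Shares of the summed FPKM in each library for 4 enzyme or transporter families and for the transcripts of Pkm and Bsg, with the mutant bar left of the control bar. The Hk2 share is 9.60% in the mutant and 19.8% in the control, and the share of the M2 transcript NM_011099 is 67.4% in the mutant and 56.9% in the control.

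At the branch after pyruvate the libraries were close. Ldha, whose product favours lactate formation, had 609 FPKM in the mutant and 558 in the control. Ldhb, whose product favours the return to pyruvate, had 59.5 FPKM in the mutant and 68.1 in the control, and Ldha held 91.1% of the pair in the mutant (90.8 to 91.4) and 89.1% in the control (88.8 to 89.4). Pdha1, a catalytic subunit gene of pyruvate dehydrogenase, had 42.0 FPKM in the mutant and 48.3 in the control. Its inhibitory kinase genes Pdk1 (11.5 FPKM in the mutant and 13.3 in the control) and Pdk2 (38.3 FPKM in the mutant and 44.0 in the control) had log2 ratios of -0.19 and -0.20, next to -0.20 for Pdha1.

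The TCA cycle members differed little between the libraries. Their 6 log2 ratios ran from -0.13 to 0.23, with a median of 0.00, 3 below 0 and 3 above. The lowest was that of the isocitrate dehydrogenase subunit gene Idh3a (53.7 FPKM in the mutant and 59.0 in the control). The highest was that of the malate dehydrogenase gene Mdh2 (244 FPKM in the mutant and 208 in the control). The citrate synthase gene Cs had 82.1 FPKM in the mutant and 79.96 in the control, and the succinate dehydrogenase gene Sdha had 120 in the mutant and 122 in the control. Fh1, for fumarase, had 40.3 FPKM in the mutant and 37.1 in the control. Ogdh, for a subunit of oxoglutarate dehydrogenase, had 46.8 in the mutant and 50.7 in the control.

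The creatine kinase genes parted. Ckb, the brain cytosolic form and the second most abundant member, had 982 FPKM in the mutant and 919 in the control. Ckmt1, the mitochondrial form, had 88.1 FPKM in the mutant and 120 in the control, 73.7% of the control (71.4 to 76.04). The Ckmt1 share of the pair was 8.23% in the mutant (8.05 to 8.42) and 11.5% in the control (11.3 to 11.7).

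Txnip (chr3:96557957-96561883, plus strand) encodes an arrestin-like protein that removes GLUT1 from the membrane and binds thioredoxin, and its transcription is known to follow cellular glucose. It had 12.8 FPKM in the mutant and 5.93 in the control, 2.15-fold higher (1.98 to 2.35), and 1.84% of measured genes had a higher log2 ratio. The difference lay mostly in 1 of its transcripts. NM_001009935 had 8.90 FPKM in the mutant and 3.24 in the control, and NM_023719 had 3.87 FPKM in the mutant and 2.69 in the control. Arrdc4, the arrestin gene most like Txnip and also known to follow glucose, had a log2 ratio of -0.11.

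In the authors' deposited table, 69 of 19556 tested transcripts were called significant, and none of the 51 tested transcripts of members was. The lowest q-value among members in the authors' deposited table was 0.249, for Slc16a8, followed by 0.400 for Hk2 and 0.628 for Slc16a1. That test compared single libraries.

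Markers of other cell types differed along with these genes, and their part in the members' differences was not tested. Cone markers were lower in 8 of 8 by at least 1.5-fold, with a summed level of 376 FPKM in the mutant and 849 in the control. Of the 8 ganglion cell markers 5 were lower and 0 higher, with a summed level of 640 FPKM in the mutant and 964 in the control. Microglia markers were higher in 7 of 8, with a summed level of 112 FPKM in the mutant and 26.8 in the control. Of 7 measured rod markers 2 were higher and 0 lower, and their log2 ratios had a median of -0.04. Of 8 Mueller glia markers 2 were higher and 1 was lower, with a median of 0.24 and a summed level of 2882 FPKM in the mutant and 2715 in the control. Lens markers, of a tissue that lies outside the retina, were lower by at least 2-fold in 5 of 5 measured, with a summed level of 2.30 FPKM in the mutant and 146 in the control. The crystallin gene Cryaa had 0.192 FPKM in the mutant and 55.7 in the control, and 2 of the 8 listed lens markers were under 0.1 FPKM in the mutant. Bipolar cell markers had log2 ratios above 0 in 8 of 8, with 1 past 1.5-fold and a median of 0.16. Amacrine cell markers had log2 ratios below 0 in 8 of 8, with 1 past 1.5-fold and a median of -0.20. Vascular markers included 1 of 8 lower by that size, with a median of -0.19, and of the 2 measured red blood cell markers 1 was higher and 1 lower. None of the cone, ganglion cell, microglia or Mueller glia markers was under 0.1 FPKM in either library.

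Other genes of energy metabolism were counted in 10 textbook lists. Of 135 listed genes 118 were measured, 5 were higher by at least 1.5-fold, where 4.29% of all genes were, and 0 were lower, where 3.04% were. Besides Hkdc1, they included the succinyl-CoA ligase gene Suclg2 (2.70 FPKM in the mutant and 1.33 in the control), the oxygen-sensing hydroxylase gene Egln3 (3.35 FPKM in the mutant and 1.81 in the control) and the peptide hormone gene Adm (2.88 FPKM in the mutant and 1.199 in the control). The respiratory chain and ATP synthase list showed small differences of like sign. Of its 20 genes 18 had log2 ratios above 0 and 0 were past 1.5-fold, with a median of 0.13 and a summed level of 3345 FPKM in the mutant and 2966 in the control. Its largest ratio was that of the cytochrome oxidase subunit gene Cox6c, with 284 FPKM in the mutant and 204 in the control. The 9 measured genes of other glucose and monocarboxylate transport had the lowest list median, -0.28, and 7 of them lay below 0. The 4 other creatine genes had the highest, 0.43, led by the creatine synthesis gene Gamt (8.97 FPKM in the mutant and 6.03 in the control). Of 9 measured hypoxia-responsive genes, Adm alone was past 1.5-fold, and the median was 0.08. The remaining list medians were 0.15 for glycogen, 0.13 for other glycolysis, 0.07 for the other TCA cycle genes, -0.03 for the pentose phosphate pathway, -0.03 for regulators such as Hif1a and -0.11 for pyruvate entry.

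**Figure D4:**
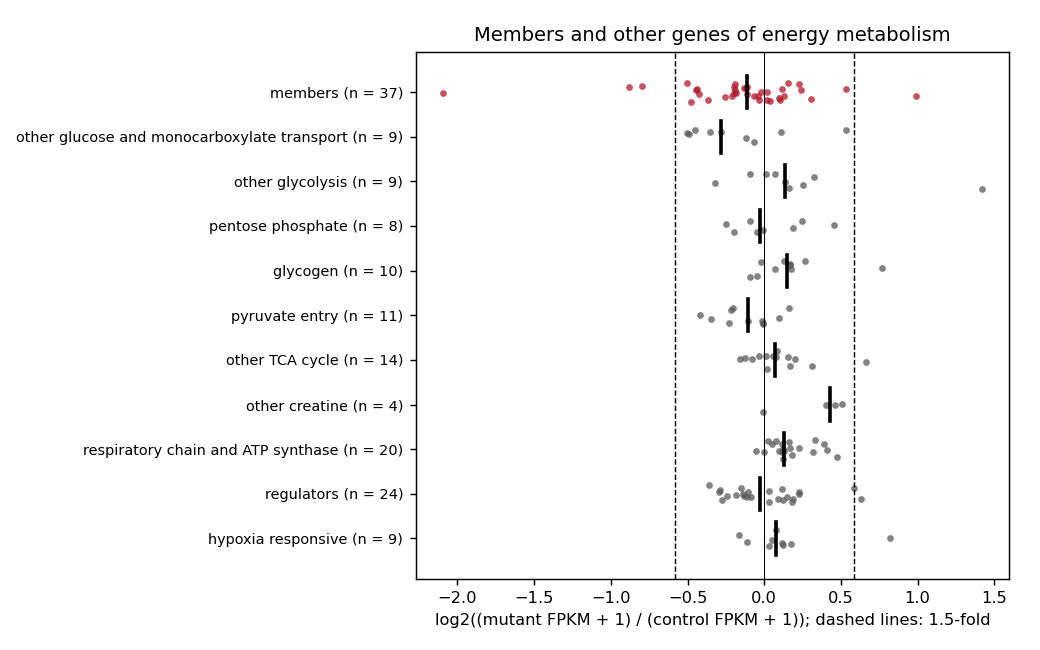
Log2 ratio of mutant to control for the 37 members and for the measured genes of 10 further lists of energy metabolism, with the median of each as a vertical bar and 1.5-fold as dashed lines. The members are the only group in this plot with genes below the lower dashed line, and the respiratory chain list lies mostly right of 0.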

How the data were processed

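Retinal RNA from 1 triple mutant and 1 control library at postnatal day 15 was sequenced. The submitters' processing notes name mm10, TopHat2 2.0.8 and Cuffdiff 2.1.1. The sources used here do not state the annotation, strandedness or read layout. The 2 deposited tables give FPKM per RefSeq transcript, with the authors' log2 fold change, test score, p-value and q-value, per the file headers. The table with symbols (30608 rows) was used, and the other (33362 rows), made from the same libraries, served as an alternative.

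FPKM was summed over the transcripts of a symbol. A gene was used where a transcript had status OK and none failed (15318 of 23356 symbols). Depth was read from the lowest values of genes with a single transcript 3000 bases long or longer. The step and a fragment length of 200 bases were those, among the values tried, that made most low values whole multiples of the step, within 10% of it: 73.5% in the mutant and 76.8% in the control. Exact intervals on ratios treat the fragments so recovered as counts. Lengths and coordinates are from GENCODE M21 on GRCm38, the assembly mm10 denotes. Of the members, 6 (Pfkm, Pfkp, Pfkfb2, Aldoa, Tpi1, Gapdh) overlap exons of a measured gene on the opposite strand, and without strand the fragments of such a pair are mixed.

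Every member was described. Outside them, each pathway gene past 1.5-fold was named, except 1 that is not reported here, or up to 2 with the largest ratios of a list; Emb, Arrdc4 and single markers were chosen with values known. The members and lists were chosen with earlier results of these data known. Python 3.11.15, pandas 2.3.3 and scipy 1.17.1 were used.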

Additional observations from a re-analysis of the deposited data

How the results depend on the processing

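The 3 lower members and Txnip kept their direction under the 9 settings chosen at the outset, but most of these settings could not have reversed it. A pseudocount or a filter cannot turn the sign of a ratio, and Slc16a8, Hk2 and Slc16a1 have 1 transcript each. The second table came from the same libraries. Log2 ratios ran from -3.13 to -0.99 for Slc16a8, -0.91 to -0.81 for Hk2, -0.81 to -0.74 for Slc16a1 and 0.70 to 1.22 for Txnip. With no pseudocount or one of 0.1, the members higher by 1.5-fold were 2 (Gapdh joined), and 1 was higher by 2-fold, Txnip. That 2-fold count was also 1 from the highest transcript only and in the second table. With a pseudocount of 5, 0 members were lower by 2-fold. The median of members was -0.054 in the second table, where the median of all genes was 0.054, 21 of 37 members lay below 0 and 40.05% of all genes did. Ogdh, Pfkl, Pkm, Sdha and Tpi1 changed sign in 1 setting each. Of the pathway genes, 9 were higher and 1 lower by 1.5-fold at a pseudocount of 0.1, and 1 was higher at 5. With the Gm5506 row added to Eno1, an alternative chosen after seeing the data, Eno1 held 67.1% of the enolase level in the mutant and 54.4% in the control, against 5.28% in the mutant and 5.31% in the control without it. The second table has that transcript near 0 and gives no such shift. With the highest transcript only, the share of Slc16a1 among its family differed by -9.61 points and that of Slc16a3 by 14.6 points. Leaving out Gapdh and Eno1, also chosen later, left 3 members lower and 1 higher by 1.5-fold. No paired analysis was possible because there was 1 library per group, and none could be left out. Depth limits Slc16a8 most, with about 66.2 fragments in the mutant and 499 in the control.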

Other observations

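Within families of isozymes, the gene that led in the control held a larger share in the mutant in 7 of 9 families. This count was made after the values were seen. The differences were 10.2 points for Hk1, 5.01 for Pfkl, 3.47 for Slc2a1, 3.28 for Ckb and 1.98 for Ldha, and under 1 point for Pdk2 and for Eno2, whose family rests on the uncertain Eno1 value. The leading gene had the smaller share in the mutant in the other 2 families, by -13.8 points for Slc16a1 and -2.37 points for Aldoa. Shares are taken within a library, so scaling between the libraries does not enter them. The second deposited table, from the same libraries, gave a difference of 10.2 points for Hk1 and -13.8 points for Slc16a1.

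Transcript shares differed most in Txnip, where NM_001009935 held 69.7% of the gene's level in the mutant and 54.6% in the control. In Ogdh, NM_010956 held 61.0% in the mutant and 54.4% in the control. Fragments behind these values number about 1899 in the mutant and 756 in the control for Txnip, summed over its transcripts.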
